A study of Mus musculus with 62 samples.

Results

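Reactive astrocyte genes are a set of 10 genes that astrocytes raise after injury or beside amyloid plaques: Gfap, Vim, Nes, Serpina3n, Lcn2, Timp1, Cd44, Osmr, S1pr3 and Stat3. The members were matched by gene name, and all 10 were found among the 53975 gene identifiers of each long-RNA table. They were followed in 17 libraries of whole mouse hippocampus, each from the pooled left and right hippocampi of 1 mouse, and in 14 libraries of HT-22 cells, a mouse hippocampal line. The mice were APP NL-G-F, which carry the humanised and mutated App allele (called APP here), or C57BL/6J (called WT here). Each age of 3, 6 and 12 months had 3 APP mice. WT had 2 mice at 3 months, 3 at 6 months and 3 at 12 months. In the study's design plaques are very few at 3 months and are appearing with symptoms at 6 months, and 12 months is the last stage. HT-22 cells at passage 4 were first kept for 24 h with locked nucleic acid (LNA) oligonucleotides, either anti-Hsf1 (150 nM) or scramble (given in the labels as 50 uM). The amyloid beta peptide 1-42 (Aβ42) or its inverted-sequence control (reverse) followed, each at 30 uM and dissolved in DMSO, with 4 libraries for each peptide under scramble and 3 for each under anti-Hsf1. The APP allele is a germline knock-in, so every cell type of the hippocampus carried it.

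Astrocytes answer tissue damage with reactive gliosis, in which they enlarge, strengthen their intermediate filament skeleton and secrete protease inhibitors and acute phase proteins. Much of this program runs through cytokines of the interleukin-6 family, whose receptors, among them the oncostatin M receptor, signal through the shared chain gp130 to the transcription factor Stat3. In mouse models with amyloid plaques, reactive astrocytes lie around the plaques together with activated microglia. Bulk tissue gives the sum over all cells, so more cells of a type and more RNA per cell cannot be told apart.

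Levels are TPM (transcripts scaled to a fixed library total, which is corrected for transcript length) divided by 1 scaling factor per library, from the median of ratios over genes, and are called scaled TPM. A gene passed the test when its adjusted p was below 0.05 in a limma fit of log2(scaled TPM + 1) over all genes with a mean scaled TPM of at least 1 in the mouse or the HT-22 libraries. Such p-values measure the spread between these mice or between HT-22 samples, which are not said to come from separate days. Differences on this scale are called log2 changes, and they understate the change of genes with low levels. In the mouse libraries 8 of the 10 members could be tested, since Timp1 and Lcn2 were below that mean. In HT-22 cells 6 could be tested, since Gfap, Nes, Serpina3n and Lcn2 were below it.

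Coverage divided by FPKM, a measure of relative depth, was 1.42 to 3.04 in mouse and 0.724 to 2.60 in HT-22. The scaling factors ran from 0.693 to 1.47 in mouse. On TPM as deposited, the median log2 change over all genes was 0.60 for APP against WT at 6 months, 0.12 at 12 months and -0.16 at 3 months, so each change below is given relative to the typical gene. Xist, which is expressed from an inactive X chromosome, was at 70.2 to 137 scaled TPM in every APP library and in both WT libraries at 3 months, and at 0.263 to 0.521 in the WT libraries at 6 and 12 months. Genotype therefore cannot be told apart from sex at 6 and 12 months, nor can age from sex between WT at 3 months and WT at 6 or 12 months. Comparisons between ages within APP do not set libraries high in Xist against libraries low in it. The 5 sex-linked genes, Xist among them, summed to 70.2 to 87.6 scaled TPM in APP at 3 months. The sum was 115 to 137 at 6 months and 103 to 116 at 12 months. Of the 5, 1 was called higher at 6 months and 1 at 12 months, each against 3 months. In the mouse libraries 8 neuronal marker genes summed to 1685 to 2333 scaled TPM and 10 astrocyte genes to 1066 to 1418. Single markers could vary more, and the neuronal gene Slc17a7 ran from 87.4 to 421. Oligodendrocyte genes summed to 1564 to 2621 in APP at 3 months and 1131 to 1258 in APP at 12 months. Immediate-early genes, which respond quickly to stimuli, summed to 116 to 370 and 97.0 to 106 in these groups. The part of such differences in the member levels was not tested. In HT-22 cells the same 8 neuronal genes summed to 1.43 to 7.37, with 5 to 7 of the 8 at 0, so the defining neuronal markers were near absent in these libraries.

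Gfap (ENSMUSG00000020932, chromosome 11, 102887336 to 102900912, minus strand, GRCm38) encodes the glial fibrillary acidic protein, the intermediate filament by which reactive astrocytes are usually recognised. In WT mice it was at 121 and 108 scaled TPM at 3 months, at 133, 114 and 148 at 6 months, and at 129, 123 and 134 at 12 months. In APP mice it was at 67.8, 122 and 109 at 3 months, at 148, 355 and 119 at 6 months, and at 566, 457 and 578 at 12 months. The WT libraries thus kept between 108 and 148 at all ages, while the 3 APP libraries at 12 months lay above all others and 1 of the 3 at 6 months lay between.

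Serpina3n (ENSMUSG00000021091, chromosome 12, 104406729 to 104414329, plus strand) encodes a secreted serine protease inhibitor that astrocytes release in many injury models. It sits in a cluster of similar Serpina3 genes, and reads that match several of them cannot be assigned with certainty from these tables. Its levels in APP mice were 6.54, 10.2 and 9.32 scaled TPM at 3 months, 14.3, 20.4 and 15.1 at 6 months, and 43.9, 35.5 and 46.7 at 12 months. In WT mice they were 15.8 and 17.5 at 3 months, 21.4, 24.8 and 14.1 at 6 months, and 21.4, 19.0 and 14.3 at 12 months. APP lay below WT at 3 months, with 3 against 2 libraries and without passing the test described below. It lay within the WT range at 6 months and above that range at 12 months.

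Vim (ENSMUSG00000026728, chromosome 2, 13573927 to 13582826, plus strand) encodes vimentin, the filament partner of Gfap in reactive astrocytes, which vascular, meningeal and microglial cells also make. It was at 13.9, 10.4 and 11.6 scaled TPM in APP at 3 months, at 14.3, 22.2 and 15.7 at 6 months, and at 27.3, 27.9 and 29.2 at 12 months. The WT values were 14.6 and 9.59 at 3 months, 14.6, 11.8 and 14.3 at 6 months, and 15.0, 13.8 and 16.2 at 12 months. The APP libraries at 12 months were the highest of the 17, and replicate 2 of APP at 6 months was the next.

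**Figure D1:**
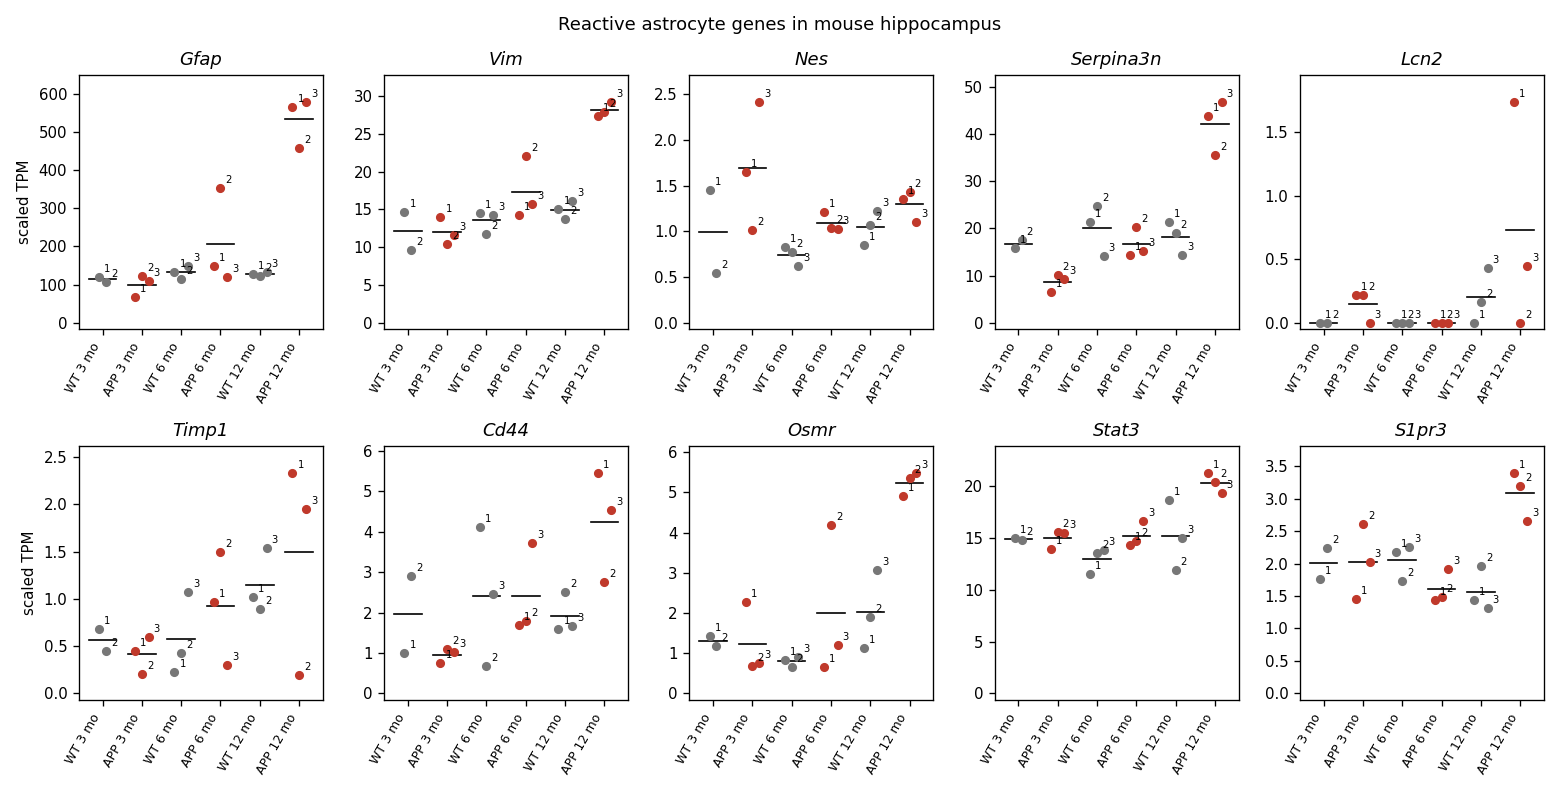
Level of each of the 10 genes in mouse hippocampus (vertical axes, scaled TPM on a linear scale from 0) in the 6 groups of genotype and age; each point is 1 library with its replicate number, grey for WT and red for APP, and each bar is the group mean. Gfap, Vim, Serpina3n, Osmr, S1pr3 and Stat3 are highest in the 3 APP libraries at 12 months. Replicate 2 of APP at 6 months stands above the other 6-month libraries in Gfap, Vim and Osmr.

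The promoters of these 3 genes are shown because they are the members that differed between APP and WT at 12 months. Each window is 250 bases before to 50 bases after the RefSeq start on GRCm38.p6, 5′ to 3′ on the strand of the gene, and capitals mark a match to TTCNNNGAA, the letters to which Stat factors bind as pairs.
Gfap, chr11:102897151-102897450, minus strand: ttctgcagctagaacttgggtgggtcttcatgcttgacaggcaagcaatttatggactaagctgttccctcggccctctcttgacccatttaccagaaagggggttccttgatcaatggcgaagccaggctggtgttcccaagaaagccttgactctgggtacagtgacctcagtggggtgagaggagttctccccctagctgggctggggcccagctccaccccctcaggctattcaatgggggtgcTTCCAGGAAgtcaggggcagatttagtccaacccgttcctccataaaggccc
Serpina3n, chr12:104406458-104406757, plus strand: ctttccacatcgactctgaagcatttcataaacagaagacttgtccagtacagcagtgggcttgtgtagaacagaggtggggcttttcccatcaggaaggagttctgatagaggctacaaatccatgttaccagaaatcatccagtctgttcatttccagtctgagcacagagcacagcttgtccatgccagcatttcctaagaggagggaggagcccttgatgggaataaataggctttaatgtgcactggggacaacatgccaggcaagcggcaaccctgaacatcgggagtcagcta
Vim, chr2:13574061-13574360, plus strand: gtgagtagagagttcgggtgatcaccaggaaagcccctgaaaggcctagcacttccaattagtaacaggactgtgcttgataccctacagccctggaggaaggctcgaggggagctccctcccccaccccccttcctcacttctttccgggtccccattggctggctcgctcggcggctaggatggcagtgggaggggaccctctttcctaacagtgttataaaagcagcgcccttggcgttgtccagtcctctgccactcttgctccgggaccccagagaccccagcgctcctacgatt
The RefSeq start used for Gfap lies inside the longer span that the deposited tables give for this gene. Its window held 1 match, beginning at position -2 (counted from the start, which is position 1, with no position 0), and the windows of Serpina3n and Vim held none. All 10 members had a RefSeq window. Of 32851 RefSeq windows of this length, 8.30% held at least 1 match to TTCNNNGAA. The AP-1 letters TGANTCA were found in 7.81% of windows and, among the members, in that of Osmr, at position 4. The letters GAANNTTC, a unit of the heat shock factor element, were in 7.86% of windows and in none of the 10 members. Each of these letter patterns reads the same on both strands, and none of the matches overlapped another.

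The other filament gene, Nes (ENSMUSG00000004891, chromosome 3, 87971078 to 87980451, plus strand), encodes nestin, which marks neural stem cells and reappears in some reactive astrocytes. Its level was low in every group, from 0.542 to 2.41 scaled TPM, and the highest library was replicate 3 of APP at 3 months. At 12 months it was at 1.36, 1.43 and 1.10 in APP and at 0.851, 1.07 and 1.22 in WT, with overlapping ranges.

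Among the surface receptors, Osmr (ENSMUSG00000022146, chromosome 15, 6813577 to 6874969, minus strand) encodes the oncostatin M receptor. In APP mice it was at 2.28, 0.692 and 0.751 scaled TPM at 3 months, at 0.655, 4.18 and 1.19 at 6 months, and at 4.91, 5.35 and 5.48 at 12 months. The WT values were 1.44 and 1.19, then 0.823, 0.670 and 0.902, and 1.14, 1.91 and 3.06 at 12 months. The APP libraries at 12 months lay above all others, and replicate 2 of APP at 6 months followed.

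Cd44 (ENSMUSG00000005087, chromosome 2, 102811141 to 102901665, minus strand) encodes the main receptor for hyaluronan. It was at 0.756, 1.09 and 1.03 scaled TPM in APP at 3 months, at 1.70, 1.78 and 3.74 at 6 months, and at 5.45, 2.75 and 4.54 at 12 months. The WT libraries spread as widely, with 1.00 and 2.91 at 3 months, 4.13, 0.671 and 2.46 at 6 months, and 1.60, 2.50 and 1.66 at 12 months. WT and APP overlapped at 3 and 6 months and did not at 12 months.

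S1pr3 (ENSMUSG00000067586, chromosome 13, 51408639 to 51422797, plus strand) encodes a receptor for sphingosine-1-phosphate. At 12 months it was at 3.39, 3.19 and 2.66 scaled TPM in APP and at 1.43, 1.95 and 1.31 in WT. At 3 months the values were 1.46, 2.60 and 2.02 in APP and 1.77 and 2.25 in WT, and at 6 months 1.44, 1.49 and 1.92 in APP and 2.18, 1.74 and 2.25 in WT. The 3 APP libraries at 12 months were the highest of the 17.

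Stat3 (ENSMUSG00000004040, chromosome 11, 100885098 to 100939540, minus strand) encodes the transcription factor through which gp130 receptors act. It was at 21.2, 20.3 and 19.3 scaled TPM in APP at 12 months and at 18.6, 11.9 and 15.0 in WT. At the earlier ages it was at 13.9, 15.6 and 15.4 and then 14.3, 14.7 and 16.6 in APP, and at 14.9 and 14.7 and then 11.5, 13.5 and 13.8 in WT. All libraries outside APP at 12 months lay between 11.5 and 18.6.

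The remaining secreted members were barely detected. Timp1 (ENSMUSG00000001131, chromosome X, 20870166 to 20874735, plus strand), an inhibitor of matrix metalloproteinases, was at 2.33, 0.196 and 1.96 scaled TPM in APP and at 1.02, 0.889 and 1.53 in WT at 12 months, and at 0.202 to 1.49 at the earlier ages. Lcn2 (ENSMUSG00000026822, chromosome 2, 32384633 to 32388252, minus strand), which encodes the iron carrier lipocalin-2, was listed at 0 in 11 of 17 libraries. Its highest values were 1.73 and 0.445 in 2 APP libraries at 12 months, with 0 in the third, and 0.432 in a WT library at 12 months. Coverage of Lcn2 was at most 0.756 mean reads per base, so a difference in it was not detectable at this depth. None of the markers of neutrophils and T cells reached the mean for testing, and their 7 genes summed to at most 1.39 scaled TPM.

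Ranked by mean level in WT mice at 12 months, the order was Gfap at 129 ± 5.5 (SD, n = 3), Serpina3n at 18.2 ± 3.6, Stat3 at 15.2 ± 3.4, Vim at 15.0 ± 1.2, Osmr at 2.03 ± 0.97, Cd44 at 1.92 ± 0.51, S1pr3 at 1.57 ± 0.34, Timp1 at 1.15 ± 0.34, Nes at 1.05 ± 0.19 and Lcn2 at 0.199 ± 0.22. Serpina3n, Stat3 and Vim overlapped one another there, and each of Osmr, Cd44, S1pr3, Timp1 and Nes overlapped its neighbour in the order. In APP mice at 12 months the means were 534 ± 67 for Gfap, 42.0 ± 5.8 for Serpina3n, 28.2 ± 0.95 for Vim, 20.3 ± 0.95 for Stat3, 5.24 ± 0.30 for Osmr, 4.25 ± 1.4 for Cd44 and 3.08 ± 0.38 for S1pr3. Serpina3n, Vim and Stat3 no longer overlapped there, and Gfap lay above them in both groups. Osmr overlapped Cd44 and Cd44 overlapped S1pr3 in APP at 12 months. In APP mice at 3 months, Serpina3n at 8.67 ± 1.9 ranked below Stat3 at 15.0 ± 0.91 and Vim at 12.0 ± 1.8.

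At 12 months Gfap, Serpina3n and Vim were higher in APP than in WT, and the other 5 members tested did not pass the test. Gfap differed 4.15-fold, with a log2 change of 2.04 (95% interval 1.39 to 2.69, SE 0.30, n = 3 against 3, limma adjusted p = 0.0068). Serpina3n differed 2.30-fold, with a log2 change of 1.17 (0.72 to 1.62, adjusted p = 0.021). Vim differed 1.88-fold, with a log2 change of 0.87 (0.51 to 1.23, adjusted p = 0.030). These 3 of 8 compare with 0.412% of all 17737 genes tested that were higher in APP. The receptors and Stat3 had log2 changes of 1.09 for Osmr (adjusted p = 0.39), 0.82 for Cd44 (adjusted p = 0.66), 0.67 for S1pr3 (adjusted p = 0.16) and 0.42 for Stat3 (adjusted p = 0.33), and Nes one of 0.17 (adjusted p = 0.97). For 7 of the 8 members, Nes excepted, the 3 APP libraries lay above the 3 WT libraries without overlap, as they did for 8.63% of all genes tested. The median log2 change over the 8 members was 0.85, against -0.00 over all genes. Vim lost its call without the filter on low values (adjusted p = 0.052). Leaving out replicate 1 of APP at 12 months ended all 3 calls, with adjusted p of 0.0501 for Gfap, 0.13 for Serpina3n and 0.14 for Vim, and leaving out replicate 3 of APP, replicate 2 of WT or replicate 3 of WT left only Gfap. Vim also lost its call without replicate 2 of APP (adjusted p = 0.11) or replicate 1 of WT (adjusted p = 0.12) at 12 months. Leaving out 1 library at a time kept the log2 change of Gfap between 1.98 and 2.15.

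Within APP mice, 4 of the 8 members rose between 3 and 12 months. Gfap rose 5.35-fold, with a log2 change of 2.44 (95% interval 1.79 to 3.09, SE 0.30, limma adjusted p = 0.0012). Serpina3n rose 4.85-fold, with a log2 change of 2.16 (1.71 to 2.61, adjusted p = 0.00035), and Vim 2.35-fold, with a log2 change of 1.18 (0.82 to 1.53, adjusted p = 0.0024). Osmr rose 4.23-fold, with a log2 change of 1.55 (0.79 to 2.31, adjusted p = 0.029). Of all genes, 1.91% rose. Cd44 had a log2 change of 1.39 (adjusted p = 0.054), S1pr3 one of 0.44 (adjusted p = 0.20), Stat3 one of 0.41 (adjusted p = 0.10) and Nes one of -0.20 (adjusted p = 0.72). The calls of Gfap, Serpina3n and Vim held in all 8 other settings and in each of the 17 fits that left out 1 library. Osmr lost its call without the filter on low values (adjusted p = 0.058), in a fit of the 2 groups alone (adjusted p = 0.056), and without any one of 5 libraries (APP at 3 months replicate 2 or 3, or any replicate of APP at 12 months). All of these libraries were high in Xist.

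**Figure D2:**
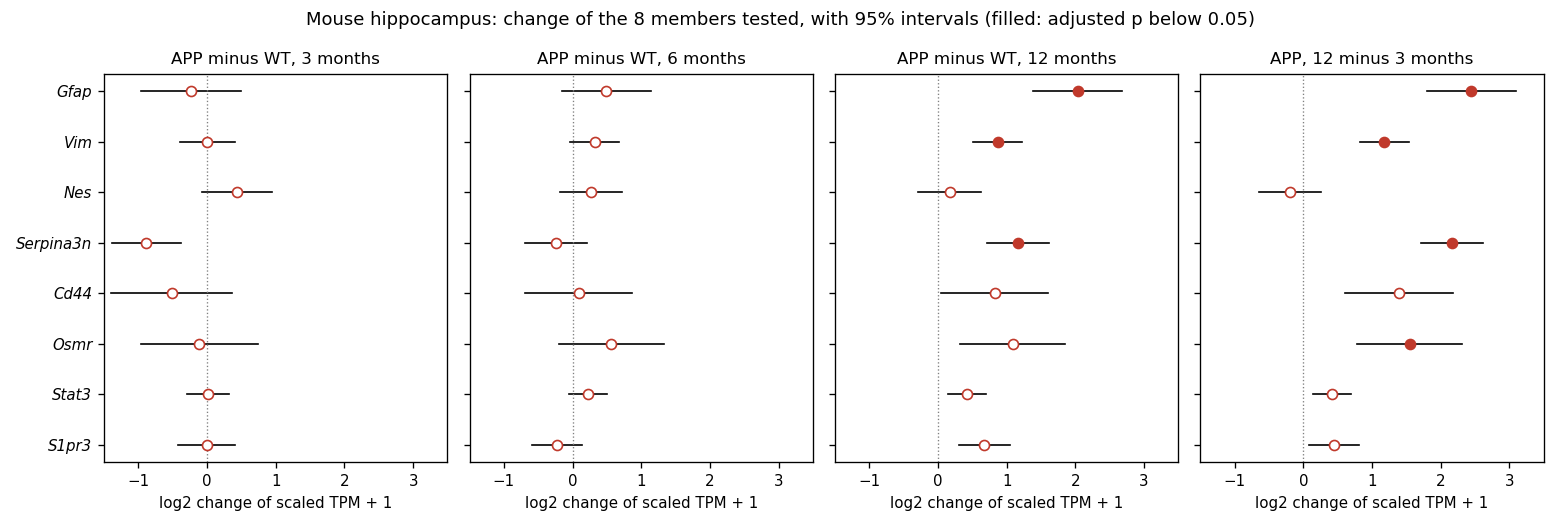
Log2 change of scaled TPM + 1 (horizontal axes) of the 8 members tested, for APP minus WT at each age and for 12 minus 3 months within APP; lines are 95% intervals from limma and filled points passed the test. At 3 and 6 months no point is filled, at 12 months Gfap, Vim and Serpina3n are, and between 3 and 12 months in APP Osmr is as well.

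Between 6 and 12 months in APP, Gfap and Serpina3n rose and the other 6 members tested did not pass. Gfap had a log2 change of 1.52 (adjusted p = 0.042, 2.58-fold) and Serpina3n one of 1.30 (adjusted p = 0.016, 2.53-fold), and 2 of 8 members rose against 0.519% of all genes. Vim had a log2 change of 0.69 (adjusted p = 0.098), Osmr one of 1.23 (adjusted p = 0.18) and S1pr3 one of 0.64 (adjusted p = 0.14). Without replicate 2 of APP at 6 months, Vim and Osmr also passed, with log2 changes of 0.87 and 1.71. Gfap kept its call in 3 of the 17 fits that left out 1 library and Serpina3n in 13, and neither passed without replicate 1 or 3 of APP at 6 months or replicate 1 or 3 of APP at 12 months. The 2 groups fitted alone gave no call. Between 3 and 6 months Serpina3n had a log2 change of 0.87 (adjusted p = 0.046, 1.91-fold), where 1.28% of all genes rose. Its call was lost in 13 of the 17 fits that left out 1 library and in 4 of the 8 other settings. Gfap had a log2 change of 0.92 (adjusted p = 0.12) and Vim one of 0.49 (adjusted p = 0.13) in that step.

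One of the 3 APP mice at 6 months, replicate 2, had the highest levels of several members in its group. In it Gfap was at 355 scaled TPM against 148 and 119, Vim at 22.2 against 14.3 and 15.7, Osmr at 4.18 against 0.655 and 1.19, and Serpina3n at 20.4 against 14.3 and 15.1. Cd44, S1pr3 and Stat3 were highest in replicate 3 of that group instead. Genes of plaque-associated microglia summed to 282 scaled TPM in replicate 2 and to 147 and 117 in the others. Choroid plexus genes summed to 110 in it and to 1188 and 813 in the others. The part of these differences in the member levels was not tested.

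At 6 months none of the 8 members differed between APP and WT (limma adjusted p from 0.35 to 0.94, 0 of 8 at an unadjusted p under 0.05), where 1.73% of all genes did. Gfap had a log2 change of 0.49 (95% interval -0.16 to 1.14) and Osmr one of 0.57 (-0.20 to 1.33). Vim had one of 0.32 (-0.04 to 0.68) and Serpina3n one of -0.24 (-0.69 to 0.21). On TPM as deposited 5 members passed at 6 months (Gfap, Vim, Nes, Osmr and Stat3), but there 57.6% of all genes were called higher in APP.

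At 3 months none of the 8 members differed either (adjusted p from 0.12 to 1.00, 1 of 8 at an unadjusted p under 0.05), and 0.304% of all genes did. The lowest p was that of Serpina3n, with a log2 change of -0.88 (95% interval -1.39 to -0.38, adjusted p = 0.12) for 3 APP against 2 WT libraries. On TPM as deposited its log2 change was -1.07 and passed (adjusted p = 0.033). Gfap had a log2 change of -0.23 (-0.96 to 0.49), which turned to 0.02 without replicate 1 of APP. All 5 libraries of this comparison were high in Xist.

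In WT mice none of the 8 members passed the test between ages. Between 3 and 12 months limma gave adjusted p from 0.70 to 0.99, with 0.062% of all genes called, and between 6 and 12 months from 0.76 to 0.99, with 0% called (1215 of 17737 genes at an unadjusted p under 0.05). No member had an unadjusted p under 0.05 in either comparison. The 95% interval of the change in Gfap from 6 to 12 months in WT was -0.67 to 0.62, and that of Serpina3n was -0.57 to 0.33.

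Whether the difference between APP and WT itself changed with age was tested as an interaction. From 3 to 12 months, Serpina3n passed (2.05, SE 0.32, 95% interval 1.38 to 2.73, adjusted p = 0.019), 1 of 8 members against 0.0395% of all genes in this direction. Gfap had an interaction of 2.27 (1.30 to 3.24, adjusted p = 0.099) and Vim one of 0.87 (0.33 to 1.40, adjusted p = 0.23). The WT mice at 3 months differed in Xist from those at 12 months, so age in WT cannot be told apart from sex in this test. Leaving out any one of replicates 1 and 3 of APP at 12 months, either WT library at 3 months, or replicates 2 and 3 of WT at 12 months ended the call of Serpina3n, and leaving out replicate 2 of APP at 6 months added Gfap (adjusted p = 0.0019).

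From 6 to 12 months no member passed the interaction test (adjusted p from 0.15 to 0.95, 4 of 8 at an unadjusted p under 0.05, 0.0226% of all genes called). Gfap had 1.55 (0.63 to 2.46), Serpina3n 1.41 (0.78 to 2.05) and S1pr3 0.90 (0.38 to 1.42). Gfap passed without replicate 2 of APP at 6 months, at 2.02 (adjusted p = 0.0048). From 3 to 6 months none passed (adjusted p from 0.29 to 0.82, 0 of 8 at an unadjusted p under 0.05, 1.62% of all genes called).

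Astrocyte identity genes, which astrocytes express in the resting state too, did not pass the test at 12 months. Their 10 genes, among them the water channel Aqp4 and the glutamate transporters Slc1a2 and Slc1a3, summed to 1250 to 1322 scaled TPM in APP and 1209 to 1262 in WT. None of the 10 passed for APP against WT at 12 months, with a median log2 change of 0.08. Between 3 and 12 months in APP 1 of 10 rose, the transcription factor Sox9, with a log2 change of 0.62 (adjusted p = 0.0045). Between 3 and 6 months in APP 2 of 10 rose, where 1.28% of all genes did. In both steps 6 of the 10 were above 0 on the log2 scale. Within APP they summed to 1066 to 1136 at 3 months, 1297 to 1418 at 6 months and 1250 to 1322 at 12 months. The part of this difference in the member levels was not tested.

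Some microglial genes were higher beside the members. Of 8 general microglial genes 3 were higher in APP at 12 months (among them C1qa and Csf1r, with log2 changes of 1.72 and 0.93), and their summed level was 285 to 346 scaled TPM against 135 to 156 in WT. Of 8 genes of plaque-associated microglia 6 were higher, led by Cst7 at 4.73, Clec7a at 3.38, Itgax at 2.95 and Tyrobp at 2.09 on the log2 scale, and they summed to 417 to 524 against 138 to 160. Microglia can also express Vim and Cd44, and their part in those values was not tested. Choroid plexus genes summed to 1876 to 2117 scaled TPM in APP and 599 to 1666 in WT at 12 months, with 0 of 7 called and all 7 above 0 on the log2 scale. Endothelial and mural genes summed to 33.3 to 39.7 and 23.1 to 26.9, with 0 of the 8 tested called and all 8 above 0. Both kinds of tissue express Vim, and their part was not tested either. Between 3 and 12 months in APP, 5 of 8 oligodendrocyte genes fell, and their sum went from 1564 to 2621 at 3 months to 1131 to 1258 at 12 months.

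Other reactive astrocyte genes moved in part. Of the genes labelled A1 (raised after inflammatory stimulation), 10 of 12 could be tested. At 12 months 2 of the 10 were higher in APP than in WT, with a median log2 change of 0.75 over the 10: the class I histocompatibility gene H2-D1 at 1.53 (SE 0.30, adjusted p = 0.030) and the galactosyltransferase gene Ggta1 at 0.93 (SE 0.19, adjusted p = 0.039). Between 3 and 12 months in APP 6 of the 10 rose, led by H2-D1 at 1.92, the immunoproteasome subunit Psmb8 at 1.60, the proteoglycan core protein Srgn at 1.44 and Ggta1 at 1.35. Of the genes labelled A2 (raised after ischaemia), 6 of 12 could be tested and 1 was higher in APP at 12 months, the lipopolysaccharide co-receptor gene Cd14 at 1.48 (SE 0.22, adjusted p = 0.0073). H2-D1, Psmb8, Srgn and Cd14 are also expressed by microglia, and H2-D1 resembles other class I genes closely enough that its reads may be shared with them. Of 5 further genes raised in most reactive astrocytes 3 could be tested, and 1 of them, the asparaginase gene Aspg, rose between 3 and 12 months in APP, at 1.26 (adjusted p = 0.034), and none differed from WT at 12 months.

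The signalling genes around Osmr and Stat3 that could be tested showed no call. Of 16 genes of the gp130 pathway, 9 could be tested, which were receptors, Janus kinases and Pias3. The ligands listed and the feedback inhibitor Socs3 (median 0.619 scaled TPM) were below the mean for testing. Whether they changed is not known. None of the 9 passed for APP against WT at 12 months (median log2 change 0.06) or between 3 and 12 months in APP (median 0.08). Of 8 other intermediate filament and linker genes, none was higher in either comparison, and Nefh and Ina, filament genes of neurons, fell between 3 and 12 months in APP, at -1.04 and -0.44. Among 20 partners of Cd44, Timp1, Lcn2 and S1pr3, 12 could be tested, and 1 was higher in APP at 12 months: Spp1, which encodes the Cd44 ligand osteopontin, at 2.10 (SE 0.35, adjusted p = 0.013).

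Across the 17 mouse libraries the genes most like Gfap on the log2 scale, outside the members, were Cd68 (Pearson r 0.975), Laptm5 (0.970), Ctss (0.969), Tyrobp (0.968) and Mpeg1 (0.963), all known from microglia and macrophages. Without the 3 APP libraries at 12 months, r over the other 14 was 0.909 for Cd68 and 0.849 for Mpeg1. Among the members, r with Gfap over the 17 libraries was 0.90 for Vim, 0.83 for Serpina3n, 0.79 for Osmr, 0.67 for Stat3, 0.61 for Cd44, 0.60 for S1pr3 and 0.06 for Nes. Over the 14 libraries it was 0.66 for Vim, 0.50 for Serpina3n, 0.40 for Osmr, 0.23 for Cd44, 0.02 for Stat3, -0.15 for S1pr3 and -0.23 for Nes. The genes most like Serpina3n over the 17 libraries were Mylip (0.905), Rab3il1 (0.883), Lpl (0.861), Naglu (0.860) and Hvcn1 (0.859). Over the 14 libraries, r was 0.878 for Mylip, 0.848 for Rab3il1, 0.857 for Lpl, 0.602 for Naglu and 0.627 for Hvcn1. These are descriptions over libraries that share scaling and groups.

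HT-22 cells had a different profile of the same genes. Serpina3n and Lcn2 were listed at 0 in all 14 libraries, Nes was at 0 in 11 and at most 0.153 scaled TPM, and Gfap was at 0 in 3 and at most 1.22. Vim was the highest member, at 421 to 991 scaled TPM, and the ranges of Stat3, Cd44 and Timp1 overlapped below it. Osmr, at 9.29 to 32.3, overlapped those of Cd44 and Timp1, and S1pr3 was the lowest of the 6, at 2.70 to 16.0. The 10 astrocyte identity genes summed to 86.6 to 195 scaled TPM and were uneven. Aqp4 and Gjb6 were at 0 in all 14 libraries, and Aldh1l1 was at most 0.144, Slc1a2 at most 0.377, Aldoc at most 1.44 and S100b at most 1.87. Sox9 was at 21.6 to 80.7, Slc1a3 at 13.4 to 47.5, Gja1 at 6.26 to 60.7 and Slc4a4 at 13.01 to 45.9. Levels were not tested against those in mouse tissue, which was scaled separately.

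Before the comparisons, 3 HT-22 libraries stand apart from the other 11: Aβ42 with scramble replicates 3 and 4, and reverse with scramble replicate 4. Their immediate-early genes, which cells switch on within minutes of a stimulus, summed to 1052, 1144 and 1187 scaled TPM, against 127 to 199 in the others. Their relative depth was 1.64, 1.20 and 2.60, against 0.724 to 1.21. Hsf1, the target of the LNA, was at 48.7, 61.7, 63.9 and 70.9 scaled TPM with Aβ42 and scramble and at 43.1, 51.2 and 46.5 with Aβ42 and anti-Hsf1, where 1 anti-Hsf1 library lay above the lowest scramble library. With the reverse peptide it was at 53.2, 42.9, 61.6 and 56.3 under scramble and at 52.4, 42.9 and 48.7 under anti-Hsf1. LNA groups overlapped with either peptide. The groups are therefore named as labelled.

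Cd44 was at 27.8, 24.5, 105 and 119 scaled TPM with Aβ42 and scramble, and at 24.9, 27.4, 28.5 and 99.7 with reverse and scramble. Under anti-Hsf1 it was at 24.6, 23.8 and 27.0 with Aβ42 and at 29.9, 28.2 and 26.0 with reverse. The 3 libraries above were at 99.7 or more and the other 11 at 29.9 or less.

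S1pr3 was at 3.03, 3.16, 15.1 and 16.0 scaled TPM with Aβ42 and scramble, at 3.83, 3.41, 4.95 and 12.7 with reverse and scramble, and at 2.70 to 4.35 under anti-Hsf1. Timp1 was at 18.4, 28.6, 61.9 and 84.5 with Aβ42 and scramble, at 25.3, 20.8, 28.5 and 87.0 with reverse and scramble, and at 23.01 to 31.7 under anti-Hsf1. Both genes were high in the same 3 libraries.

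Osmr was at 11.3, 14.1, 32.3 and 28.7 scaled TPM with Aβ42 and scramble, at 9.29, 12.8, 14.8 and 25.4 with reverse and scramble, and at 10.5 to 17.5 under anti-Hsf1. Vim was at 434, 421, 981 and 991 with Aβ42 and scramble, at 539, 459, 573 and 932 with reverse and scramble, and at 532 to 724 under anti-Hsf1. These were again highest in the 3 libraries, whereas Stat3 was not: it was at 40.8, 43.3 and 45.7 in them and at 35.6 to 54.8 in the others.

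**Figure D3:**
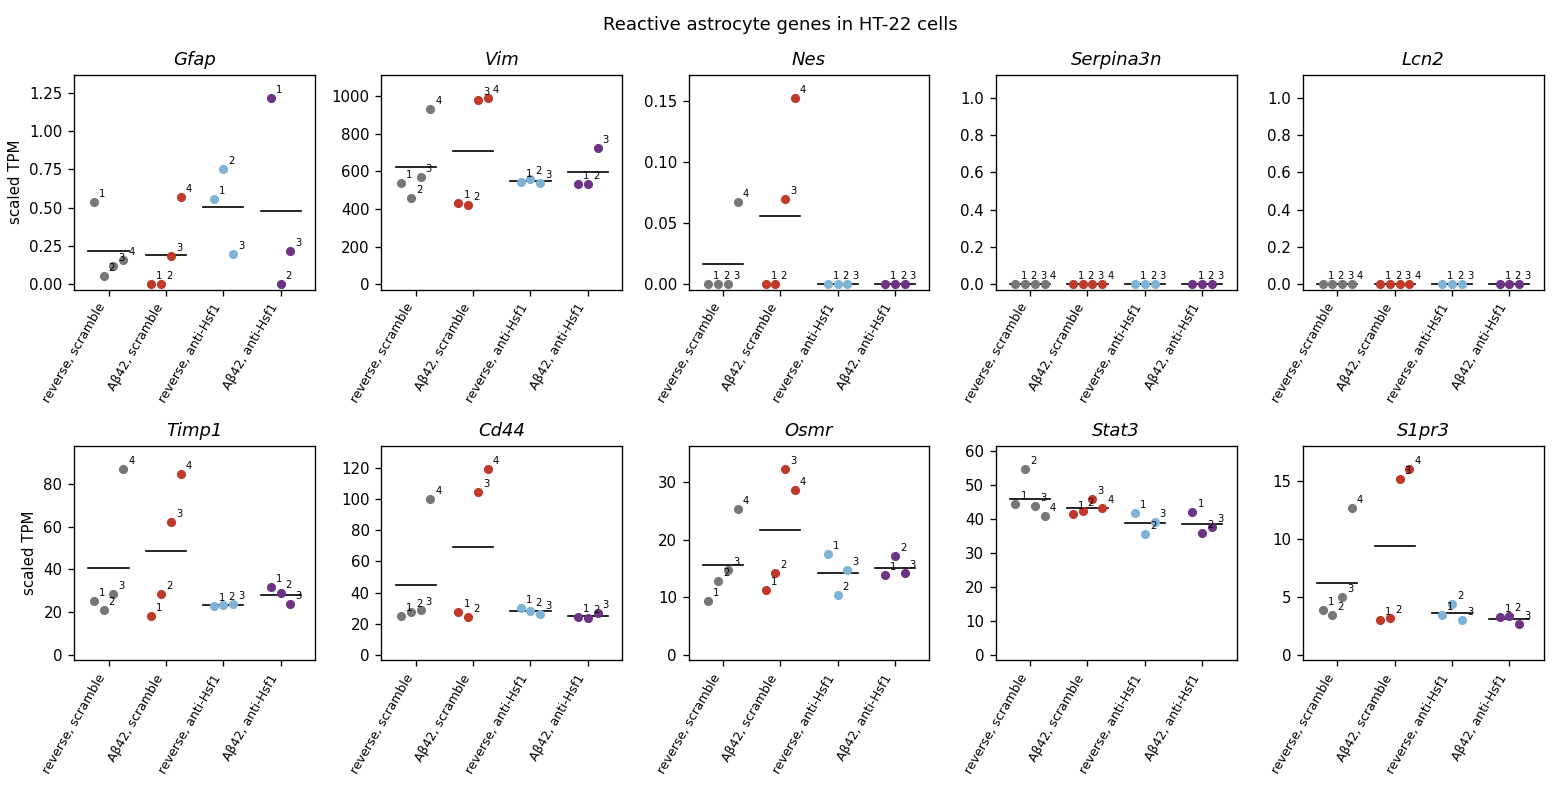
Level of each of the 10 genes in HT-22 cells (vertical axes, scaled TPM on a linear scale from 0) in the 4 groups of peptide and LNA; each point is 1 library with its replicate number and each bar is the group mean. Replicates 3 and 4 of Aβ42 with scramble and replicate 4 of reverse with scramble are the highest in Vim, Timp1, Cd44, Osmr and S1pr3, and Serpina3n and Lcn2 are at 0 throughout.

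Neither the peptide nor the LNA gave a call for any of the 6 members tested. For Aβ42 against reverse under scramble, limma gave adjusted p from 0.95 to 0.98, with 0% of 17207 genes called (865 at an unadjusted p under 0.05). The log2 change was 0.52 for Cd44 (95% interval -0.58 to 1.63), 0.41 for Osmr (-0.31 to 1.13), 0.35 for S1pr3 (-0.69 to 1.40), 0.26 for Timp1 (-0.72 to 1.25), 0.11 for Vim (-0.53 to 0.74) and -0.08 for Stat3 (-0.30 to 0.14). Without the 3 libraries the changes were -0.04 for Cd44 (-0.28 to 0.19), 0.06 for Osmr (-0.46 to 0.58), -0.29 for S1pr3 (-0.75 to 0.16), -0.10 for Timp1 (-0.53 to 0.32), -0.29 for Vim (-0.61 to 0.03) and -0.18 for Stat3 (-0.44 to 0.08), with 0 of 6 members and 0.00583% of genes called. With that, 4 of the 6 turned sign. This fit kept replicates 1 and 2 of Aβ42 and replicates 1 to 3 of reverse under scramble. The libraries left out were chosen after seeing the data. They held the highest values of every member tested but Stat3, so a narrower spread follows from leaving them out.

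For libraries labelled anti-Hsf1 against scramble with Aβ42, adjusted p ran from 0.55 to 0.88, with 0.0232% of genes called. Cd44 had a log2 change of -1.08 (95% interval -2.28 to 0.11), S1pr3 one of -1.01 (-2.14 to 0.12), Timp1 one of -0.53 (-1.60 to 0.54), Osmr one of -0.37 (-1.15 to 0.41), Stat3 one of -0.16 (-0.40 to 0.07) and Vim one of -0.14 (-0.83 to 0.55). Without the 3 libraries Cd44 was at -0.06 (-0.29 to 0.18), S1pr3 at -0.00 (-0.46 to 0.46), Timp1 at 0.28 (-0.15 to 0.70), Osmr at 0.23 (-0.29 to 0.75), Stat3 at -0.12 (-0.38 to 0.14) and Vim at 0.47 (0.14 to 0.79, adjusted p = 0.50), with 0.0233% of genes called. Only replicates 1 and 2 of Aβ42 with scramble remained in the fit without the 3 libraries. On TPM as deposited all 6 members were called lower, as were 50.5% of all genes, with a median log2 change over all genes of -0.62.

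The 3 other HT-22 comparisons gave 0 of 6 members each. Under anti-Hsf1, Aβ42 against reverse called 0% of genes (0.0233% without the 3 libraries), and with the reverse peptide anti-Hsf1 against scramble called 0% (0% without them). The interaction of peptide and LNA called 0% (0.0233% without them). No member had an unadjusted p under 0.05 in any of the 5 comparisons with all libraries. Without the 3 libraries 1 member did in each of the LNA comparisons and none in the others.

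**Figure D4:**
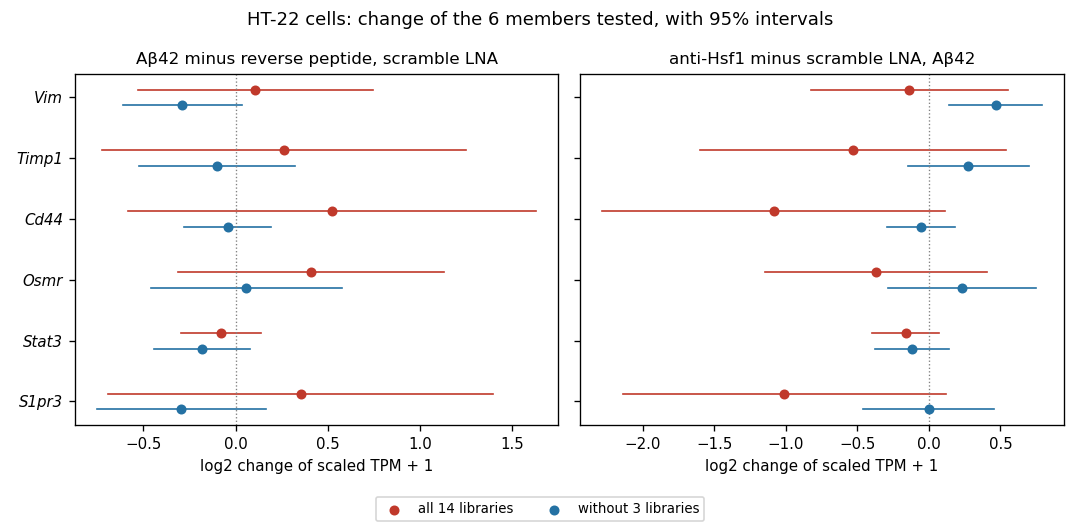
Log2 change of scaled TPM + 1 (horizontal axes) of the 6 members tested in HT-22 cells, for Aβ42 minus reverse peptide under scramble and for anti-Hsf1 minus scramble LNA with Aβ42; red is the fit with all 14 libraries, blue the fit without the 3 libraries that stand apart, and lines are 95% intervals from limma. With all libraries every interval includes 0, and without the 3 libraries Cd44 lies at -0.04 in one panel and -0.06 in the other.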

How the data were processed

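Long-RNA libraries were made after fragmenting the RNA and removing ribosomal RNA, per the labels' protocols. The submitters' processing notes name FastQC, cutadapt 1.18, BWA 0.7.17, HISAT2 2.1.0, bedtools 2.26.0 and StringTie 1.3.4d, with no role given. Each library has a deposited gene abundance table. Per the file headers it gives Coverage, FPKM and TPM. The deposited coverage signal is the mean read depth over a gene. The deposited FPKM and TPM are scaled by the authors for length and library, so reads per gene are not known and no count model was run. The B2 counts of the short-RNA libraries were not analysed here.

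TPM was summed per gene identifier. Scaling factors were medians of ratios over 17141 genes above 0 in every mouse library and 15757 in every HT-22 library. limma 3.58.1 (R 4.3.3, trend and robust) was fitted to log2(scaled TPM + 1), with 17 mouse libraries in 1 fit of 6 groups and 14 HT-22 libraries in another of 4 groups. Genes with a mean of at least 1 were tested, with Benjamini-Hochberg adjustment over all of them at 0.05. In HT-22 cells the labels do not say that same-numbered libraries share a day. The alternatives were TPM as deposited, upper quartile scaling, a pseudocount of 0.1, no filter, a mean of at least 5, the groups of the comparison alone, array weights, the replicate number as a block, and each library left out; leaving out 3 HT-22 libraries together was added after seeing the data. The fit was tested on simulated data. Figures were drawn with matplotlib 3.10.9.

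The members and gene lists were chosen with earlier results of these data known. All members were named. From each other list at most 4 genes per comparison that passed were named, largest change first, and the 5 genes most like Gfap and Serpina3n by Pearson r. Hsf1 was named as the target of the LNA. Positions are those of the tables, on GRCm38, and those of all 10 members are the same in GENCODE M21. Promoters are RefSeq windows on GRCm38.p6.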

Additional observations from a re-analysis of the deposited data

Results flagged for a closer look

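In the HT-22 group with reverse peptide and scramble, replicate 4 lay apart from the other 3 libraries in 4 of the 8 genes examined, by the ratio of its gap to the range of the group. In the other group of 4 libraries, Aβ42 with scramble, 0 of 8 genes were so marked. That ratio looks at the gap of 1 library, so it cannot mark libraries that are high together. Replicates 3 and 4 of that group were high together in Cd44, S1pr3 and Timp1, so the absence of marks says nothing about them. Cd44 was at 99.7 scaled TPM, S1pr3 at 12.7, Timp1 at 87.0 and Nes at 0.0671 in that library. Chance alone marks about 1 in 20 such groups if the values follow a normal distribution without ties. The 4 genes come from 1 library, so the marks are not independent. Nes was at 0 in the other 3 libraries and near the limit of detection, so any value above 0 would have been marked and that rate does not hold for it. The same library had a relative depth of 2.60 and immediate-early genes that summed to 1187 scaled TPM, and their part was not tested.

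Serpina3n changed differently with age in APP and WT mice. Its interaction between genotype and age from 3 to 12 months was 2.05 on the log2 scale by limma (adjusted p = 0.019). APP rose from 8.67 to 42.0 scaled TPM in the mean and WT stood at 16.6 and 18.2. WT mice at 3 and 12 months differed in Xist, so this result cannot be told apart from sex in the WT arm.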

How the results depend on the processing

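The other fits were 8 other settings, 1 library left out at a time and, in HT-22 cells, the 3 libraries left out together. Over these fits, 330 of 390 counts of members called stayed within 1.5 times. Many of these belong to comparisons with no call, where a count that stayed at 0 was scored as unchanged. With 1 library left out, the count for APP against WT at 12 months held in 11 of 17 fits. Within APP it held in 10 of 17 from 3 to 12 months, 4 from 3 to 6 months and 2 from 6 to 12 months. For the interaction from 3 to 12 months it held in 10. On TPM as deposited the counts for APP against WT were 1 (Serpina3n) at 3 months and 5 at 6 months. Within APP they were 3 from 3 to 6 months and 1 from 6 to 12 months. For the interaction they were 2 from 3 to 12 months and 4 from 3 to 6 months. In the same order, 71, 10339, 1270, 26, 81 and 7932 of all 17840 genes tested were called. In HT-22 cells the member counts were 1 (Stat3) for the peptide under anti-Hsf1, 6 for anti-Hsf1 with Aβ42 and 1 for the interaction. There 4197, 8766 and 4379 of all 17291 genes tested were called. For APP from 3 to 6 months the count was 0 without the filter, with array weights, with the groups alone and with the replicate block. From 6 to 12 months it was 1 with a pseudocount of 0.1, without the filter and with the replicate block, 4 with array weights and 0 with the groups alone. The interaction from 3 to 12 months gave 2 with the groups alone, and anti-Hsf1 with Aβ42 gave 2 (Cd44 and S1pr3) with array weights. The cause was not tested.

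With 1 library left out, the counts ran from 0 to 3 for APP against WT at 12 months, from 0 to 1 for APP from 3 to 6 months, from 0 to 4 from 6 to 12 months, from 3 to 5 from 3 to 12 months, from 0 to 2 for the interaction from 3 to 12 months and from 0 to 1 from 6 to 12 months. Signs turned among values that were not called. On TPM these were Serpina3n at 6 months (0.44) and Stat3 for the peptide under scramble (0.082). Without the 3 HT-22 libraries they were Vim (-0.29), Cd44 (-0.044), S1pr3 (-0.29) and Timp1 (-0.10) for the peptide under scramble, and Vim (0.47), Osmr (0.23) and Timp1 (0.28) for anti-Hsf1 with Aβ42. With 1 library left out the lowest and highest values were -0.40 and 0.024 for Gfap at 3 months. For the peptide under scramble they were -0.10 and 0.32 for Vim, -0.081 and 0.71 for Timp1, and -0.13 and 0.0042 for Stat3. For anti-Hsf1 with Aβ42 they were -0.34 and 0.065 for Vim.

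Replicate numbers name different mice, and the main fits had no replicate block. In no comparison with at least 3 pairs did every same-numbered pair correlate above 0.1. For APP at 3 and 6 months r was 0.06 to 0.23, with a mean of 0.15 against -0.07 for the other pairs. For the peptides under scramble r was -0.22 to 0.58. Whether libraries of the same number share a batch was not tested, and the labels do not say. With the replicate block the count for APP against WT at 12 months went from 3 to 2, with Vim at an adjusted p of 0.055, and Vim for anti-Hsf1 with Aβ42 turned to 0.070. Between 3 and 12 months in APP the block gave 4 members, as without it. Among all genes, TPM as deposited moved the split of calls for APP against WT at 3 months from 22 higher and 32 lower to 8 and 63, at 6 months from 76 and 231 to 10267 and 72 (127 and 216 by upper quartile), for APP from 3 to 6 months from 227 and 196 to 1207 and 63, from 3 to 12 months from 338 and 243 to 205 and 81, and from 6 to 12 months from 92 and 4 to 21 and 5. The interactions went from 7 and 6 to 77 and 4 (3 to 12 months) and from 168 and 119 to 7892 and 40 (3 to 6 months), and anti-Hsf1 with Aβ42 from 4 and 0 to 26 and 8740. The peptide under anti-Hsf1 and the HT-22 interaction went from 0 and 0 to 7 and 4190 and to 10 and 4369. Low coverage of Lcn2, Timp1, Nes, Osmr and Cd44 in the mouse libraries limits their precision.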
